A study of Vitis vinifera with 8 samples.

Results

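Pathogenesis-related (PR) protein genes were examined in 4 runs of neighbouring grapevine gene identifiers, each called after a PR family. Members were all array probes, other than controls, whose identifier lay within fixed limits, so that membership was decided by the identifier alone. The PR10 run on chromosome 5 held 19 members, the PR1 run on chromosome 3 held 16, the thaumatin-like run on chromosome 2 held 12 and the chitinase run, also on chromosome 5, held 17, which made 64 of the 34369 probes on the array. The names of the runs come from this choice of members. Of the 64 members, 5 carried an annotation in the tables used here, namely VvPR10.3 (VIT_05s0077g01560), 2 class IV chitinases (VIT_05s0094g00330 and VIT_05s0094g00340), a diphthamide synthesis protein of the DPH2 type (VIT_05s0094g00370) and 1 entry annotated as no hit (VIT_03s0088g00760). VIT_05s0094g00370 is therefore not a chitinase, although it closes the chitinase run, and the other 59 members are given by their identifiers only.

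PR proteins accumulate in plants after attack by pathogens and under other stresses. PR1 proteins are small secreted proteins of the CAP superfamily, and in Arabidopsis PR1 is a marker of salicylic acid signalling through NPR1. PR10 proteins are small intracellular proteins of the Bet v 1 type, thaumatin-like proteins form the PR5 family, and chitinases cleave the chitin of fungal cell walls. In grapevine, chitinases and thaumatin-like proteins are abundant soluble proteins of the ripe berry.

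Leaves came from in vitro plantlets of the cultivar Sultana, 7 days after vacuum infiltration with Agrobacterium tumefaciens strain C58C1. The OXNAC33 group carried VviNAC33, a NAC transcription factor gene, under the constitutive 35S promoter, and its 4 plants were those with the highest transgene expression by quantitative PCR among 8 infiltrated plants. The Control group held 4 of 7 plants infiltrated with the same vector carrying a noncoding sequence. Both groups had thus met the bacterium, to which PR genes are known to respond, and plants without infiltration were not analysed here. Each array was read with 1 dye from 1 plant, as a pool of its apical leaves, so that fewer cells of a type and less RNA per cell cannot be told apart.

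The label check and the state of the arrays were examined first. VviNAC33 (VIT_19s0027g00230) had levels of 1.15, 0.59, -0.13 and -1.14 on OXNAC33 replicates 1 to 4, against 0.14, -0.75, -1.15 and -1.37 on Control replicates 1 to 4, where a level is the log2 of the intensity over the 75th percentile of its array, the scale of all levels here. On the array labelled OXNAC33 replicate 4 the level was within the range of the controls, above 2 of them and 0.24 above the control of its scan date, and the log2 difference of 0.90 (SE 0.52) gave an unadjusted limma p of 0.121, or 0.00751 in the fit blocked on replicate number. The arrays had 73.8% to 84.1% of their probes well above background, and scans were made on 3 dates, with replicates 1 and 2 of both groups on the first, replicate 3 on the second and replicate 4 on the third. On scan dates 1 and 2 each slide held arrays of 1 group only, so that group and slide cannot be told apart there. On scan date 3 both groups were on 1 slide. All 8 leaf photosynthesis genes were well above background on all arrays. Their summed level was 77.8 to 170.3 times the 75th percentile in OXNAC33 and 177 to 337 times in Control. Of the 8 genes 4 were lower in OXNAC33 at the threshold used below, and 6 of the 8 had been tabulated from these arrays. In a list of 8 seed and lignification genes, SEEDSTICK and 2 laccases were not well above background on any array, and the summed level was 0.576 to 2.75 in OXNAC33 and 0.250 to 0.689 in Control. Within this list VIT_18s0001g00680 and VIT_18s0122g00690 had the highest levels on OXNAC33 replicate 1, at 0.68 and -0.04. The median difference of its tested genes was 0.08. The part of either list in the results below was not tested.

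OXNAC33 was then set against Control to ask which PR genes differ in leaves when VviNAC33 is overexpressed. Of the 64 members 53 were well above background on at least 4 arrays and were tested, and no member passed the adjustment over all 26579 probes tested (limma, Benjamini-Hochberg, lowest adjusted p among members = 0.636). Over all probes, 0 also passed it, in limma and in the methods' t-test, while 2064, or 7.77%, had an unadjusted p under 0.05, as did 6 of the 53 members. Members are therefore described at the threshold of the methods, a 1.5 fold difference or more whose unadjusted p was under 0.05, which 643 probes passed with higher levels (2.42%) and 826 with lower levels (3.11%). By that threshold 2 members were higher, both in the chitinase run, and 3 were lower, 1 in the PR10 run and 2 in the PR1 run. These 5 members made 9.43% of those tested, beside 5.53% of all probes. The groups did not overlap for 2 tested members, or 3.77%, of which 1 was higher and 1 lower, and for 4.12% of all probes, 2.35% higher and 1.76% lower.

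**Figure D1:**
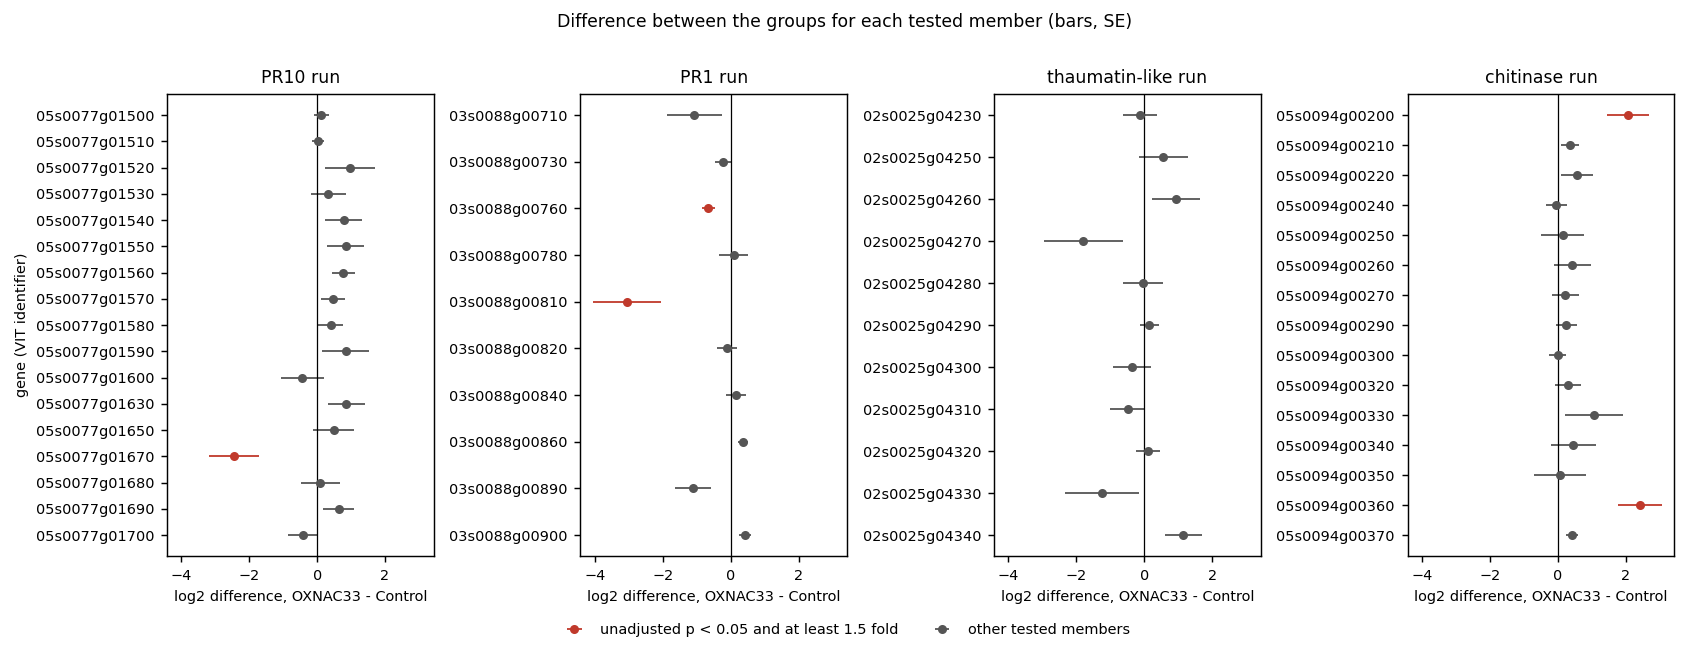
Log2 difference, OXNAC33 minus Control (horizontal axis), for each of the 53 tested members in identifier order from top to bottom, with bars for the SE. The 5 members in red differed by 1.5 fold or more with an unadjusted p under 0.05: VIT_05s0077g01670, VIT_03s0088g00760 and VIT_03s0088g00810 were lower and VIT_05s0094g00200 and VIT_05s0094g00360 were higher.

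In the chitinase run, a member near each end was higher in OXNAC33, while none of the members between them passed the threshold. VIT_05s0094g00360 had levels of -1.23, -1.56, -3.97 and -3.20 on OXNAC33 replicates 1 to 4, against -3.85, -5.07, -5.55 and -5.20 on Control replicates 1 to 4. Every OXNAC33 array was above the Control arrays of its own scan date, and the groups overlapped only through OXNAC33 replicate 3 and Control replicate 1. The log2 difference was 2.43 (SE 0.65), or 5.38 fold, with an unadjusted p of 0.00538 in limma, an adjusted p of 0.636 and a two-sided exact permutation p of 0.0571. VIT_05s0094g00200, the first member of the run, had levels of 0.10, -0.10, -2.54 and -1.25 on OXNAC33 replicates 1 to 4, against -2.15, -3.05, -3.98 and -2.86 on Control replicates 1 to 4. As for VIT_05s0094g00360, replicates 1 and 2 were the high arrays of OXNAC33 and replicate 3 was the lowest array of both groups, and the groups overlapped only through OXNAC33 replicate 3 and Control replicate 1. Its difference was 2.06 (SE 0.62), or 4.17 fold, with an unadjusted limma p of 0.00992 and an exact permutation p of 0.0571.

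Both members kept their direction on the 3 scan dates, of which only scan date 3 had both groups on 1 slide. The differences of VIT_05s0094g00360 were 3.06, 1.58 and 2.00 on scan dates 1 to 3. For VIT_05s0094g00200 they were 2.60, 1.44 and 1.60. With scan date as a block, the SE of VIT_05s0094g00360 was 0.38 and that of VIT_05s0094g00200 was 0.30, and the adjusted limma p of both was 0.197. Leaving out single arrays gave differences between 2.01 and 2.92 for VIT_05s0094g00360 and between 1.71 and 2.59 for VIT_05s0094g00200, and both stayed past the unadjusted threshold each time. With normexp background correction the difference of VIT_05s0094g00360 was 1.36, with an unadjusted limma p of 0.0272. The arrays with the highest levels of both members, OXNAC33 replicates 1 and 2, were also those with the lowest photosynthesis levels, with list medians of -1.28 and -0.74 on the log2 scale relative to the mean over the arrays. A laccase, VIT_18s0001g00680, was higher in OXNAC33 as well, by 2.80 (SE 0.78). Of the 5 tested genes of the seed and lignification list, 3 had positive and 2 negative differences, with a median of 0.08.

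The 2 annotated class IV chitinases did not pass the threshold. VIT_05s0094g00330 had levels of -0.28, -2.38, -3.46 and -4.80 on OXNAC33 replicates 1 to 4, against -3.87, -4.46, -3.92 and -2.95 on Control replicates 1 to 4. VIT_05s0094g00340 had levels of 2.60, 0.74, 0.19 and -0.97 on OXNAC33 replicates 1 to 4, against 0.29, -0.17, 0.10 and 0.50 on Control replicates 1 to 4. For both genes OXNAC33 replicate 1 was the highest and OXNAC33 replicate 4 the lowest of all 8 arrays, so that the overexpressing plants spanned the controls on both sides. The differences were 1.07 (SE 0.86) and 0.46 (SE 0.65), with exact permutation p of 0.343 and 0.657. Without OXNAC33 replicate 4, the difference of VIT_05s0094g00330 was 1.76 with an unadjusted limma p of 0.0448, and without OXNAC33 replicate 1 it was 0.25 with a p of 0.682. Without OXNAC33 replicate 1 the difference of VIT_05s0094g00340 turned to -0.19, and with the slide as a random block that of VIT_05s0094g00330 was -0.30 and that of VIT_05s0094g00340 was -0.44.

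DPH2 (VIT_05s0094g00370), an enzyme of the diphthamide pathway that modifies elongation factor 2 in yeast, had levels of -0.51, -0.39, -0.88 and -0.73 on OXNAC33 replicates 1 to 4, against -1.20, -1.14, -0.73 and -1.09 on Control replicates 1 to 4. Control replicate 3 lay among the OXNAC33 arrays, and the difference of 0.41 (SE 0.18) had an exact permutation p of 0.0857. Of the 15 tested members of the chitinase run, 13 had positive differences and 2 had negative ones, VIT_05s0094g00240 at -0.05 and VIT_05s0094g00300 close to 0, while 54.8% of all probes tested were positive. The median difference was 0.36, beside 0.04 over all probes. The remaining members lay between 0.06 and 0.56. VIT_05s0094g00230 and VIT_05s0094g00280 were not well above background on any array.

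Of 55 pairs among the 11 chitinase run members examined, whose levels spanned at least 1 over the arrays, 3 stayed within 0.5 of one another on every array once each probe was set to its own mean, namely VIT_05s0094g00270 with VIT_05s0094g00290 (at most 0.31 apart), VIT_05s0094g00220 with VIT_05s0094g00260 (0.33) and VIT_05s0094g00210 with VIT_05s0094g00320 (0.47). VIT_05s0094g00220 had levels of 2.16, 2.53, 0.81 and 2.05 on OXNAC33 replicates 1 to 4, against 2.19, 1.46, 0.33 and 1.34 on Control replicates 1 to 4. VIT_05s0094g00260 had levels of 1.71, 2.12, 0.24 and 1.41 on OXNAC33 replicates 1 to 4, against 2.06, 1.18, -0.26 and 0.76 on Control replicates 1 to 4. Replicate 3 was the lowest array of each group for both, and the groups overlapped over most of their range. Over the 8 arrays VIT_05s0094g00220 spanned 2.20 and VIT_05s0094g00260 spanned 2.38. Their differences between the groups were 0.56 (SE 0.47) and 0.43 (SE 0.55), and for VIT_05s0094g00220 the unadjusted limma p was 0.269, or 0.0449 with the replicate number as a block. VIT_05s0094g00250, with a Control range of 2.47, was well above background on 2 arrays of each group and differed by 0.14 (SE 0.63).

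**Figure D2:**
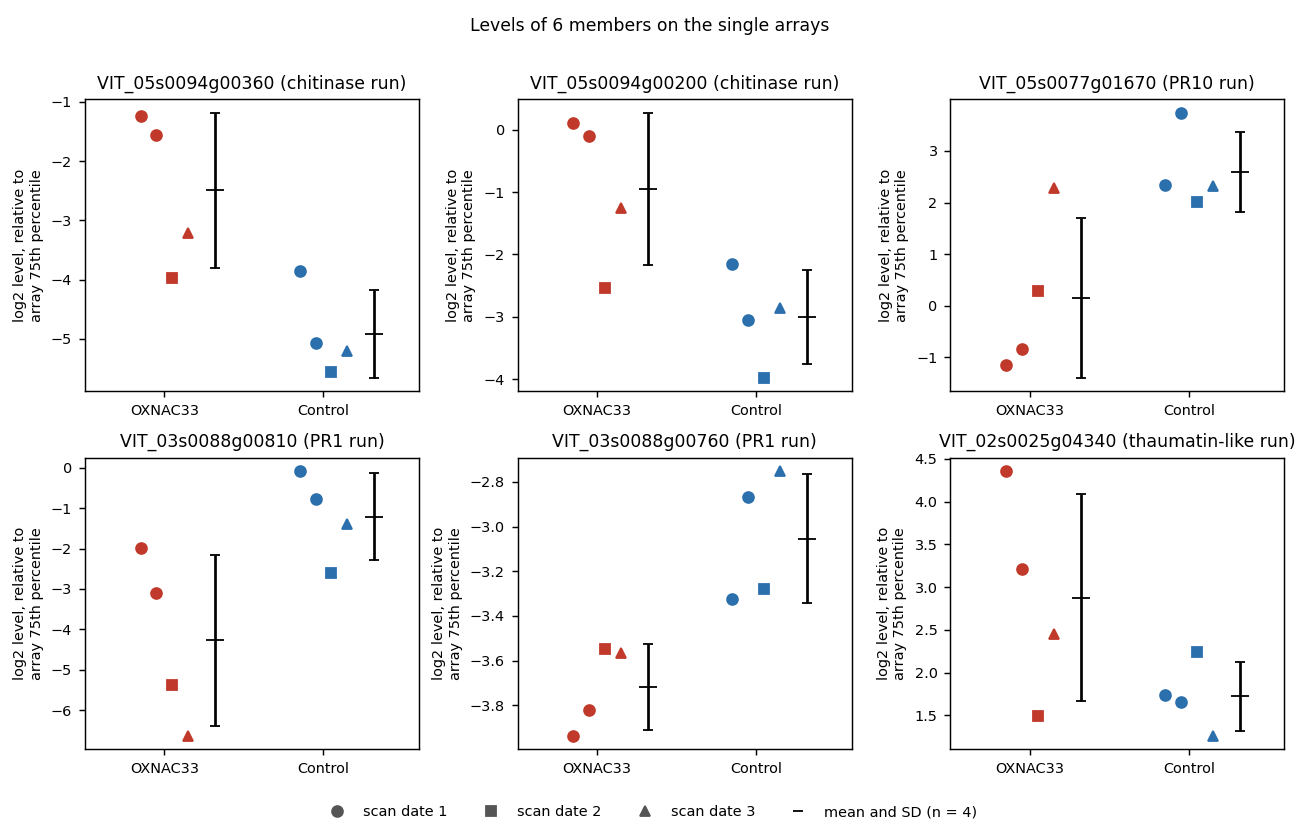
Levels on the single arrays (vertical axis, log2 of the intensity over the array's 75th percentile, with a scale of its own in each panel) of the 5 members past the unadjusted threshold and of VIT_02s0025g04340, with the shape of the point giving the scan date and bars giving the mean and SD of 4 arrays. Within every scan date both chitinase run members were higher in OXNAC33 and both PR1 run members were lower, whereas OXNAC33 replicate 4 of VIT_05s0077g01670 lay inside the Control range.

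In the PR1 run, 2 members were lower in OXNAC33 and none was higher at the threshold. VIT_03s0088g00810 had levels of -1.99, -3.10, -5.37 and -6.63 on OXNAC33 replicates 1 to 4, against -0.08, -0.78, -2.61 and -1.40 on Control replicates 1 to 4. OXNAC33 replicates 3 and 4 were far below all Control arrays, replicate 4 was not well above background, and the groups overlapped only through OXNAC33 replicate 1 and Control replicate 3. The difference was -3.06 (SE 1.01), with an unadjusted limma p of 0.0158, an adjusted p of 0.636 and an exact permutation p of 0.0571. It was -2.11 on scan date 1, -2.76 on scan date 2 and -5.24 on scan date 3. Without OXNAC33 replicate 4, in which VviNAC33 was not raised above the Control range, the difference was -2.27.

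VIT_03s0088g00760, the entry annotated as no hit, had levels of -3.94, -3.82, -3.55 and -3.57 on OXNAC33 replicates 1 to 4, against -3.32, -2.87, -3.28 and -2.75 on Control replicates 1 to 4. The groups did not overlap, and the arrays of each group were close to one another. The difference of -0.66 (SE 0.19), or 1.58 fold, had an unadjusted limma p of 0.00849 and an exact permutation p of 0.0286, the smallest that 4 against 4 arrays can give. With normexp background correction the difference was -0.49 and its unadjusted p 0.0681. VIT_03s0088g00860 was the other member without overlap, with levels of -6.36, -6.10, -6.09 and -6.30 on OXNAC33 replicates 1 to 4, against -6.72, -6.38, -6.56 and -6.61 on Control replicates 1 to 4. It was well above background on 3 OXNAC33 arrays and 2 Control arrays. Its difference of 0.36 (SE 0.15) was under 1.5 fold, with an unadjusted limma p of 0.0464 and an exact permutation p of 0.0286, and with normexp it was -0.011.

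Among the tested members of the PR1 run, the widest spread between control plants was seen in VIT_03s0088g00810, VIT_03s0088g00890 and VIT_03s0088g00710. VIT_03s0088g00890 had levels of -6.10, -4.93, -6.00 and -4.99 on OXNAC33 replicates 1 to 4, against -3.97, -3.10, -5.41 and -5.10 on Control replicates 1 to 4. Control replicates 1 and 2 stood above the other 6 arrays, which overlapped. The difference was -1.11 (SE 0.54), with an unadjusted limma p of 0.0726, or 0.0392 with the replicate number as a block. VIT_03s0088g00710 had levels of -3.58, -0.57, -0.45 and -2.80 on OXNAC33 replicates 1 to 4, against -2.05, -0.39, -0.97 and 0.26 on Control replicates 1 to 4. OXNAC33 replicates 1 and 4 were low and the other OXNAC33 arrays lay among the Control arrays, so that the difference of -1.07 (SE 0.80) was within the spread. VIT_03s0088g00900 differed by 0.42 (SE 0.19), with an unadjusted limma p of 0.0543.

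Of the 10 tested members of the PR1 run 4 had positive and 6 negative differences, with a median of -0.16. The 4 other tested members, VIT_03s0088g00730, VIT_03s0088g00780, VIT_03s0088g00820 and VIT_03s0088g00840, lay between -0.22 and 0.17. The PR1 run had the most members that were not tested, 6 of 16, of which VIT_03s0088g00700 was not well above background on any array. VIT_03s0088g00690 and VIT_03s0088g00750 were not well above background on any OXNAC33 array and were so on 2 Control arrays each, and VIT_03s0088g00910 on 1 Control array. Control replicates 1 and 2, where VIT_03s0088g00690 and VIT_03s0088g00750 had their highest levels, had 84.0% and 84.1% of all probes well above background. Every other array had at most 77.0%. Their mean in Control was below the lowest signal that counted as well above background in OXNAC33, and no fold is given for these 3 members. The remaining 2, VIT_03s0088g00720 and VIT_03s0088g00880, passed that mark on 1 OXNAC33 and 2 Control arrays. With the replicate number as a block 3 members of the run passed the unadjusted threshold, where 8.86% of all probes did. Without Control replicate 3 there were also 3, where 728 of all probes were higher and 1175 lower. Without Control replicate 4 there was 1, where 613 were higher and 725 lower.

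In the PR10 run, 1 member was lower in OXNAC33 and most others had positive differences, of at most 0.97, that did not pass the threshold. VIT_05s0077g01670 had levels of -1.14, -0.83, 0.29 and 2.28 on OXNAC33 replicates 1 to 4, against 2.34, 3.74, 2.00 and 2.32 on Control replicates 1 to 4. OXNAC33 replicates 1 to 3 were below all Control arrays, and OXNAC33 replicate 4 lay within the Control range. The difference was -2.45 (SE 0.75), with an unadjusted limma p of 0.0105, an adjusted p of 0.636 and an exact permutation p of 0.0571. By scan date it was -4.02, -1.71 and -0.03. Without OXNAC33 replicate 4 it was -3.16 with an adjusted p of 0.117, and with the slide as a random block it was -1.30 with an unadjusted p of 0.115.

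VvPR10.3 (VIT_05s0077g01560) had levels of -1.93, -1.81, -2.22 and -2.54 on OXNAC33 replicates 1 to 4, against -3.24, -3.65, -2.58 and -2.12 on Control replicates 1 to 4. Control replicates 1 and 2 were the low arrays, while Control replicate 4 was above 2 of the 4 OXNAC33 arrays. The difference of 0.77 (SE 0.34) had an unadjusted limma p of 0.0537 and an exact permutation p of 0.114. It was 1.58 on scan date 1, 0.36 on scan date 2 and -0.42 on scan date 3. Its unadjusted limma p was 0.0110 when Control replicate 4 was left out, 0.0428 when OXNAC33 replicate 4 was and 0.137 when Control replicate 2 was, and with the slide as a random block the difference was 0.20.

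Of the 17 tested members of the PR10 run 14 had positive differences, with a median of 0.46 over the run, or -0.052 with the slide as a random block. Positive differences were given by 13 members on each of scan dates 1 and 2 but by 4 on scan date 3, and the median within these dates was 0.94, 0.70 and -0.64. Over all probes tested 55.3%, 51.6% and 49.2% were positive on the 3 dates. Scan date 3 held the array labelled OXNAC33 replicate 4 and Control replicate 4, the only arrays of both groups on 1 slide. Without OXNAC33 replicate 4, 5 members were higher and 1 was lower at the unadjusted threshold, or 6 of 17, where 9.22% of all probes passed it, 4.12% higher and 5.10% lower, and the lowest adjusted p was 0.117. The 5 higher members were VIT_05s0077g01540, VIT_05s0077g01550, VIT_05s0077g01560, VIT_05s0077g01570 and VIT_05s0077g01630. Without Control replicate 1, Control replicate 4 or OXNAC33 replicate 3, 2 members of the run passed. Over all probes 697, 613 and 1280 were then higher and 764, 725 and 861 lower.

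**Figure D3:**
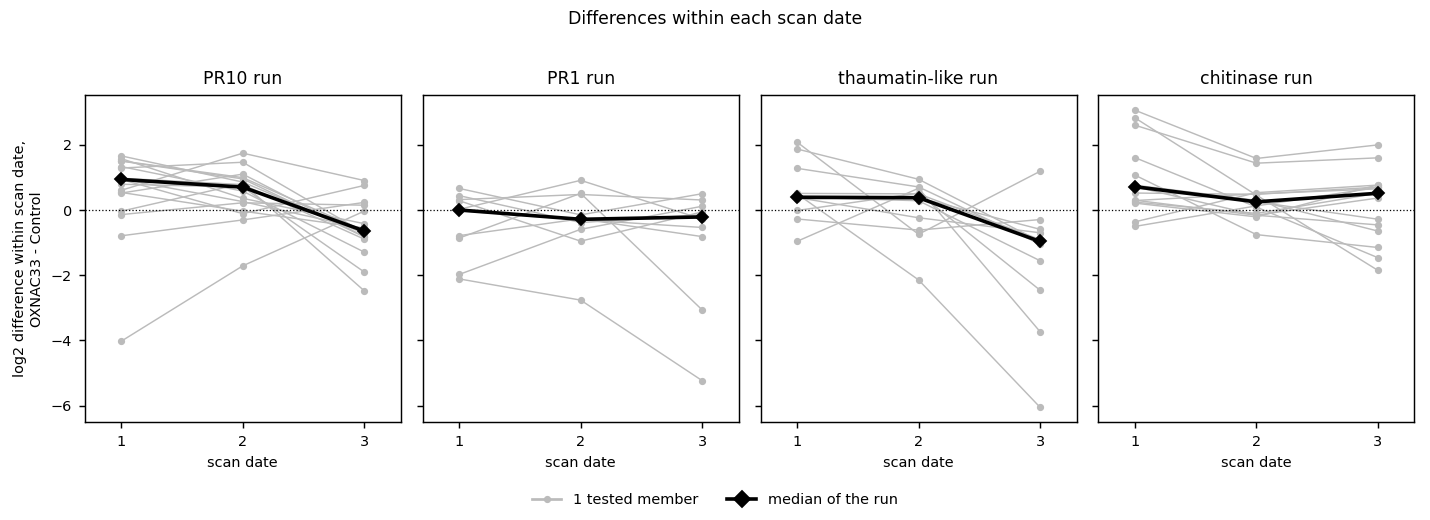
Log2 difference, OXNAC33 minus Control, within each of the 3 scan dates for every tested member (grey) with the median of the run (black). Scan date 1 held 2 arrays per group and the others 1, and only scan date 3 had both groups on 1 slide. The median of the PR10 run was 0.94, 0.70 and -0.64 and that of the thaumatin-like run 0.39, 0.38 and -0.96, while the chitinase run stayed positive at 0.72, 0.25 and 0.51.

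In the PR10 run 4 members varied together over the arrays. VIT_05s0077g01630 had levels of 3.86, 4.02, 2.71 and 1.97 on OXNAC33 replicates 1 to 4, against 3.17, 1.39, 1.85 and 2.69 on Control replicates 1 to 4. OXNAC33 replicates 1 and 2 and Control replicate 1 were high, Control replicates 2 and 3 and OXNAC33 replicate 4 were low, and the difference of 0.86 (SE 0.55) was within this spread. VIT_05s0077g01540, VIT_05s0077g01550 and VIT_05s0077g01650 followed the same course. When each probe was set to its mean over the 8 arrays, the 6 pairs among these 4 members differed by at most 0.11 to 0.36 on any array, while their ranges lay between 2.28 and 2.63. Among 78 pairs of PR10 run members examined, these were the only ones within 0.5 on every array. Probe sequences were not used here, so whether the probes of near-identical copies read 1 transcript or several cannot be told apart.

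VIT_05s0077g01530 had levels of 1.90, 1.26, 1.61 and 0.51 on OXNAC33 replicates 1 to 4, against 2.23, -0.12, 0.51 and 1.33 on Control replicates 1 to 4. The Control arrays spanned all OXNAC33 arrays, and the difference was 0.33 (SE 0.52). VIT_05s0077g01600 had levels of -5.05, -4.12, -3.34 and -6.05 on OXNAC33 replicates 1 to 4, against -3.58, -5.52, -4.16 and -3.57 on Control replicates 1 to 4, with no separation and a difference of -0.43 (SE 0.64). VIT_05s0077g01520 had levels of -4.20, -6.23, -6.30 and -6.34 on OXNAC33 replicates 1 to 4, against -4.80, -6.85, -8.04 and -7.24 on Control replicates 1 to 4. Replicate 1 was the highest array of each group, and the probe was well above background on all OXNAC33 arrays and on Control replicates 1 and 2. Its difference was 0.97 (SE 0.75), with an exact permutation p of 0.286, and in the fit blocked on replicate number the SE was 0.24 and the unadjusted p 0.00826, so that 2 members of the run passed the threshold. The difference of this dim probe was 0.063 with normexp, 0.54 with dim values raised to a floor, 0.44 without OXNAC33 replicate 1 and 1.61 without Control replicate 1. VIT_05s0077g01510 and VIT_05s0077g01500 at the start of the run differed by 0.02 (SE 0.19) and 0.12 (SE 0.23), and VIT_05s0077g01620 and VIT_05s0077g01660 were not well above background on any array.

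In the thaumatin-like run 0 of 11 tested members passed the unadjusted threshold, in limma or in the methods' t-test, and 0 had an unadjusted p under 0.05 in limma (lowest adjusted p = 0.640). VIT_02s0025g04340, the last member, had levels of 4.36, 3.21, 1.496 and 2.45 on OXNAC33 replicates 1 to 4, against 1.74, 1.66, 2.24 and 1.26 on Control replicates 1 to 4. It was higher in OXNAC33 replicates 1, 2 and 4 than in every Control array and lower in OXNAC33 replicate 3 than in 3 of them. The difference was 1.15 (SE 0.56), with an unadjusted limma p of 0.0703 and an exact permutation p of 0.143. Without OXNAC33 replicate 3 it was 1.61 with an unadjusted p of 0.00827, and without OXNAC33 replicate 1 it was 0.66 with a p of 0.157.

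VIT_02s0025g04260 had levels of 0.80, 1.29, -0.83 and -0.42 on OXNAC33 replicates 1 to 4, against -1.87, 0.20, -1.78 and 0.55 on Control replicates 1 to 4. VIT_02s0025g04250 next to it had levels of 0.59, 1.12, -1.27 and -0.78 on OXNAC33 replicates 1 to 4, against -1.42, 0.57, -1.98 and 0.26 on Control replicates 1 to 4. In both, Control replicates 1 and 3 were the lowest arrays, and the differences of 0.93 (SE 0.70) and 0.56 (SE 0.72) were within the spread.

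The 2 largest negative differences of the run came from members with the widest ranges among control plants. VIT_02s0025g04270 had levels of -2.19, -3.48, -6.05 and -6.77 on OXNAC33 replicates 1 to 4, against -4.41, -2.26, -3.91 and -0.72 on Control replicates 1 to 4. OXNAC33 replicates 3 and 4 were below all Control arrays and OXNAC33 replicate 4 was not well above background, while OXNAC33 replicates 1 and 2 lay among the Control arrays. The difference was -1.80 (SE 1.16), with an exact permutation p of 0.286, and without OXNAC33 replicate 1 it was -2.61 with an unadjusted p of 0.0430. Without OXNAC33 replicate 4 it was -1.08 with a p of 0.374, without Control replicate 4 it was -1.10, with normexp it was -0.996 and with the slide as a random block it was -3.75 with a p of 0.0165. VIT_02s0025g04330 had levels of -4.65, -0.70, 0.24 and -3.17 on OXNAC33 replicates 1 to 4, against -2.45, -0.98, -0.42 and 0.56 on Control replicates 1 to 4. OXNAC33 replicates 1 and 4 were the lowest arrays and the others overlapped, with a difference of -1.25 (SE 1.099).

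Of the 11 tested members of the thaumatin-like run 5 had positive and 6 negative differences, with a median of -0.04. As in the PR10 run the signs differed between scan dates. On scan date 1, 8 members were higher in OXNAC33, on scan date 2, 7 were, and on scan date 3 only VIT_02s0025g04340 was. Scan dates 2 and 3 held 1 array per group, so that scan date and plant cannot be told apart. The other members, VIT_02s0025g04230, VIT_02s0025g04280, VIT_02s0025g04290, VIT_02s0025g04300, VIT_02s0025g04310 and VIT_02s0025g04320, had differences between -0.49 and 0.15, and VIT_02s0025g04240 was not well above background on any array.

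**Figure D4:**
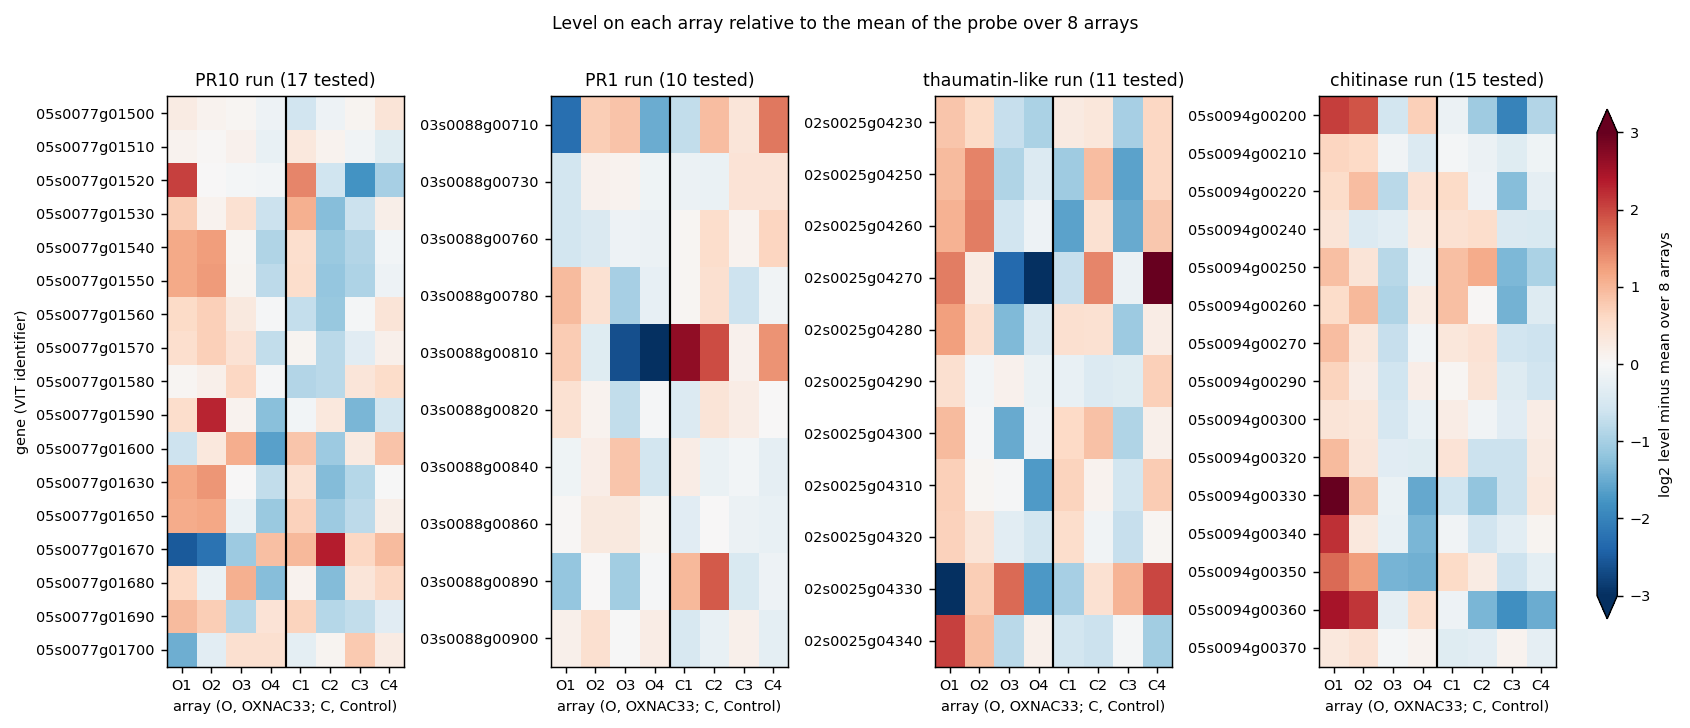
Level of each tested member on each array relative to its own mean over the 8 arrays (colour, log2 scale, colours end at 3 above or below the mean), with OXNAC33 replicates 1 to 4 (O1 to O4) left of Control replicates 1 to 4 (C1 to C4) and members in identifier order. OXNAC33 replicates 1 and 2 were high for most members of the PR10 and chitinase runs, whereas VIT_05s0077g01670 and VIT_05s0077g01700 were low on both.

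Spread between arrays of 1 group was wide in the PR10, thaumatin-like and chitinase runs and less so in the PR1 run. It was read from the fit of the group alone, so that it includes differences between scan dates. The residual SD within the groups had a median of 0.87 in the PR10 run, 0.44 in the PR1 run, 0.90 in the thaumatin-like run and 0.76 in the chitinase run, beside 0.39 over all probes tested. Of the 53 tested members 19, or 35.8%, lay above 0.93, the 90th percentile of all probes. Among the 21 tested PR-type genes outside the runs, described below, the median was 0.75 and 38.1% lay above that mark. In a limma test of scan date with the group in the model, 4 of 15 members of the chitinase run and 2 of 11 of the thaumatin-like run had an adjusted p under 0.05, and 0 members of the PR10 and PR1 runs, where 7.69% of all probes did. Among the chitinase run members these included VIT_05s0094g00220, VIT_05s0094g00250 and VIT_05s0094g00260. Differences in the same direction on all 3 scan dates were positive for 4 members of the chitinase run, 1 of the PR10 run and 1 of the PR1 run, beside 15.3% of all probes, and negative for 3 members of the PR1 run, 1 of the PR10 run and 1 of the thaumatin-like run, beside 12.8%.

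The genes that border the runs were read for comparison. On either side of the PR10 run VIT_05s0077g01490 and VIT_05s0077g01710 differed by -0.29 (SE 0.28) and 0.12 (SE 0.30), and around the thaumatin-like run VIT_02s0025g04220 and VIT_02s0025g04350 differed by 0.28 (SE 0.29) and -0.04 (SE 0.19). Around the PR1 run VIT_03s0088g00680 and VIT_03s0088g00920 differed by -0.90 (SE 0.46) and -0.58 (SE 0.50). Before the chitinase run VIT_05s0094g00190 differed by 0.47 (SE 0.18), which was under 1.5 fold, and after it VIT_05s0094g00380 differed by 0.08 (SE 0.16).

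PR-type genes outside the runs, namely chitinases, thaumatins, glucanases, a PR1 precursor, a Bet v I allergen gene and NPR1, formed a list of 25. They were taken only from the study's results for stably VviNAC33-overexpressing plants and for VviNAC33 binding to DNA. The list was thus not chosen independently of VviNAC33 and does not stand for all PR-type genes. Of these 21 were tested, and 0 passed the unadjusted threshold in limma or in the methods' t-test, with 0 at an unadjusted p under 0.05 in limma. Their differences were positive for 5 and negative for 16, with a median of -0.44, and by scan date the median was -0.46, -0.50 and 0.51, with 17 of the 21 positive on scan date 3. Without OXNAC33 replicate 4, 4 of the 21 were lower at the threshold, where 5.10% of all probes were. Without OXNAC33 replicate 1 there was 1 call, where 328 of all probes were higher and 579 lower. The Bet v I allergen gene VIT_01s0026g00570, of the protein family of PR10 and named after its values were seen, had levels of -0.87, -1.42, -4.31 and 2.40 on OXNAC33 replicates 1 to 4, against 1.92, 3.24, 0.27 and 0.36 on Control replicates 1 to 4. Like VIT_05s0077g01670 it was below all Control arrays on OXNAC33 replicates 1 to 3 and within the Control range on OXNAC33 replicate 4, and its difference of -2.50 (SE 1.32) had an unadjusted limma p of 0.0935. NPR1 (VIT_11s0016g01990) differed by 0.17 (SE 0.20).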

How the data were processed

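Leaf RNA of 8 plants, 4 OXNAC33 and 4 Control, was hybridised to a custom Agilent grapevine array with 1 dye. Sample titles gave the group and the replicate number. Per the file headers, scans were extracted by the authors with Agilent Feature Extraction 10.5.1.1, and each spot has a deposited processed intensity, linear, corrected for background and not scaled between arrays. The deposited files also give median spot and background intensity and marks of 0 or 1 for spots well above background or outlying. The authors' second deposited table holds intensity for 24631 of the probes, scaled by 1 factor per array, and 48 of the 64 members are in it.

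Processed intensity was divided by the array's 75th percentile and taken to log2, without the 140 outlying spots, of which 0 were members' spots. Each probe has 1 spot per array, and the number of arrays limits the precision. Probes marked well above background on 4 or more of the 8 arrays were tested with the limma package (3.58.1, R 4.3.3) in a model of the group alone, with two-sided p and Benjamini-Hochberg adjustment over all probes tested. The threshold of 1.5 fold or more at an unadjusted p under 0.05 follows the study's methods. The fit was tested on simulated data. Single members were also compared by exact permutation (scipy 1.17.1), whose smallest two-sided p is 0.0286. Figures were drawn with matplotlib 3.10.9. SE values are those of the limma fit. 

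Alternatives were the background correction, the normalization, the filter, a floor for dim values, scan date, slide and replicate number as blocks, the methods' t-test, the authors' second table and each array left out. The replicate number was tried as a block, although the sample titles and the methods do not state that plants were paired. Deviations from the group means correlated by r = 0.490, 0.253, 0.496 and 0.102 across probes for replicates 1 to 4. Only OXNAC33 replicate 1 correlated best with its own number. OXNAC33 replicates 2, 3 and 4 reached 0.393, 0.499 and 0.220 with Control replicates 1, 4 and 3. These correlations do not establish pairs, and p-values from this block stand as an alternative only. The numbers coincide with scan date apart from replicates 1 and 2. The members and lists were chosen with earlier results of these data known. Named are VviNAC33, members with an unadjusted p under 0.05, the 2 largest differences in each direction and the 3 widest Control ranges of each run, the 5 annotated members, and other PR-type genes past that p. Annotations are those the study pairs with the identifiers, since 0 identifiers matched the reference gene table, and no coordinates were used.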

Additional observations from a re-analysis of the deposited data

Results flagged for a closer look

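VIT_05s0077g01520 of the PR10 run had 1 array far from the rest of its group. OXNAC33 replicate 1 had a level of -4.20, while the other 3 OXNAC33 arrays lay between -6.34 and -6.23, so that the gap to the nearest array took up a share of 0.952 of the range of the group. Control replicate 1, from the same scan date, was likewise the highest of its group at -4.80. Of 56 groups of 4 arrays examined this was the only one past the critical value of Dixon's test. In groups not chosen by their values, chance alone is expected to give about 1 in 20, or 2.8 groups. VIT_05s0077g01520 was named for its large difference and wide Control range, so that this rate is a rough guide only.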

How the results depend on the processing

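The 2 members of the chitinase run past the unadjusted threshold, VIT_05s0094g00360 and VIT_05s0094g00200, stayed past it in all 18 settings each. Over 27 named members, 421 of 478 values kept their direction and their side of an unadjusted p of 0.05. The replicate number as a block treats arrays of the same number as pairs, which the sample titles do not state. The block gave 2 adjusted calls over all probes, none of them a member, and 1043 higher and 1311 lower probes at the methods' threshold. It gave 2 members called in the PR10 run, and an unadjusted limma p of 0.00751 for VviNAC33 at the same difference of 0.90. It also brought VIT_05s0077g01520, VIT_03s0088g00890 and VIT_05s0094g00220 under 0.05, changed no other call of a member, called 5 leaf photosynthesis genes in place of 4, and gave a p of 0.0173 for the seed and lignification gene VIT_18s0122g00690. Scan date as a block gave 1037 higher and 1366 lower probes, and a p of 0.0177 for VviNAC33. The methods' t-test gave 415 higher and 511 lower probes, and normexp gave 324 higher probes.

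With the slide as a random block, 0 members of the PR10 run, 2 of the thaumatin-like run and 1 of the other PR-type genes were called, where 690 probes were higher and 721 lower, the median of that list was 0.064, and VIT_05s0077g01530 (-0.13), VIT_02s0025g04250 (-0.16), VIT_05s0094g00240 (0.30), VIT_05s0094g00330 (-0.30) and VIT_05s0094g00340 (-0.44) changed sign. With normexp, 1 other PR-type gene was called, and VIT_03s0088g00860 (-0.011), VIT_05s0094g00250 (-0.15) and VIT_05s0094g00300 (0.020) changed sign; with dim values raised to a floor VIT_05s0094g00250 was -0.26. Requiring all arrays well above background left 1 call in the PR1 run, because VIT_03s0088g00810 was no longer tested. The PR1 run median was -0.40 without the filter and -0.44 in the authors' second table, which hold other members. The cause of the other shifts was not tested.

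Leaving out 1 array at a time gave 0 to 2 adjusted calls, 2 of them without OXNAC33 replicate 2, with 328 (without OXNAC33 replicate 1) to 1280 (without OXNAC33 replicate 3) higher and 523 (without Control replicate 2) to 1356 (without OXNAC33 replicate 4) lower probes. VviNAC33 lay between 0.56 and 1.32 (without OXNAC33 replicate 4, unadjusted p = 0.0188). Calls ranged from 1 to 6 in the PR10 run, 1 to 3 in the PR1 run, 0 to 1 in the thaumatin-like run (1 without OXNAC33 replicate 1 or 3), 2 to 3 in the chitinase run and 0 to 4 among the other PR-type genes. Differences that changed sign lay between -0.038 and 0.75 for VIT_05s0077g01530, -0.87 and 0.037 for VIT_05s0077g01600, -0.21 and 0.12 for VIT_05s0094g00240, -0.29 and 0.54 for VIT_05s0094g00250, -0.13 and 0.16 for VIT_05s0094g00300 and -0.19 and 0.996 for VIT_05s0094g00340. Members near background, such as VIT_03s0088g00860 and VIT_05s0094g00250, are the least certain.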
